A study of Mus musculus with 28 samples.

Results

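The genes described here are 10 mouse genes of innate immune sensing: the Toll-like receptors Tlr2, Tlr3, Tlr4, Tlr7 and Tlr9, the co-receptor Cd14, the adaptor Myd88, and the inflammasome genes Nlrp3, Pycard and Casp1. They were taken by symbol, and all 10 were found among the 40481 mouse genes of the count table. RNA was sequenced from microglia, sorted with an antibody against CD11b, and from astrocytes, sorted with an antibody against ACSA-2, both from cortex, hippocampus and thalamus of the same mice. The comparisons ask how the 2 cell types differ, what amyloid does to each, and what removal of astrocytic APOE4 does to each.

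Every mouse was APOE4fl/fl, a genotype in which both Apoe alleles hold human APOE4 that Cre can excise, and every mouse received 2 intraperitoneal doses of tamoxifen at 100 mg per kg. The age given was 3.8 months, and cells were sorted 10 days after treatment. APPPS1::APOE4fl/fl::ALDH1L1-CreERT mice carried both the APPPS1 transgenes, which cause amyloid plaques, and a tamoxifen-activated Cre driven by the promoter of Aldh1l1, an astrocyte gene; these are called APPPS1 Cre-positive. APPPS1::APOE4fl/fl mice lacked the Cre and are called APPPS1 Cre-negative. The APOE4fl/fl::ALDH1L1-CreERT and APOE4fl/fl mice had no APPPS1 transgenes and are called amyloid-free Cre-positive and amyloid-free Cre-negative. Tamoxifen and the human APOE4 alleles were therefore common to all groups, and there was no group with mouse Apoe or without tamoxifen. The labels give 5, 5, 2 and 2 mice in these groups, in the order APPPS1 Cre-positive, APPPS1 Cre-negative, amyloid-free Cre-positive and amyloid-free Cre-negative, while the design text gives 4 mice for each APPPS1 group.

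Toll-like receptors bind microbial or damaged-cell products. TLR2 and TLR4 act at the cell surface, TLR4 with the help of CD14 for bacterial lipopolysaccharide, while TLR3, TLR7 and TLR9 sense double-stranded RNA, single-stranded RNA and DNA in endosomes. MyD88 carries the signal of these receptors, except TLR3, to NF-κB and interferon regulatory factors. NLRP3 is a cytosolic sensor that assembles with ASC, the product of Pycard, into the inflammasome, in which caspase-1 matures interleukin-1β and interleukin-18. In brain, microglia are regarded as the main cells with these pathways, and CD14 and TLR2 have been described as binding aggregated amyloid-β.

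Mouse 459 of the APPPS1 Cre-positive group had 2 libraries that went against their labels. Its library labelled microglia had 139 CPM of 12 microglia identity markers and 49500 CPM of 12 astrocyte identity markers. CPM is the usual depth-scaled count, here relative to all counts of mouse genes in the library. Its library labelled astrocyte had 37700 and 186 CPM of the same markers. Tlr2 and Cd14 stood at 4.68 and 2.13 CPM in the first library and at 218 and 1930 CPM in the second. As members, they are given as description only. These libraries were left out, which leaves 26 libraries of 13 mice, 13 per sort and 4 in each APPPS1 Cre-positive group. Total counts ran from 26162612 to 59238523 per library among these 26. The 12 microglia identity markers summed to between 19000 and 43800 CPM in the microglia and to between 96.4 and 147 CPM in the astrocytes, so the astrocyte median was 0.315% of the microglia median. The 12 astrocyte identity markers summed to between 33100 and 50400 CPM in the astrocytes and to between 131 and 401 CPM in the microglia. The lowest microglia identity sum belonged to amyloid-free Cre-positive mouse 26, whose monocyte and neutrophil markers were also the highest of the microglia, at 5350 CPM. The astrocyte sort also held oligodendrocyte markers at 2680 to 22700 CPM and endothelial markers at 39.9 to 690 CPM. In sorted bulk RNA, more cells of a type and more RNA per cell cannot be told apart.

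On GRCm38, with the positions of GENCODE M21, Tlr2 lies on the minus strand at chr3:83836272-83841767, Tlr3 on the minus strand at chr8:45395665-45411080 and Tlr4 on the plus strand at chr4:66827584-66930284. Tlr7 lies on the minus strand of the X chromosome at chrX:167304929-167330558, and Tlr9 on the plus strand at chr9:106222598-106226883. Myd88 lies on the minus strand at chr9:119335934-119341411 and Casp1 on the plus strand at chr9:5298517-5307265. Nlrp3 lies on the plus strand at chr11:59541568-59566956 and Pycard on the minus strand at chr7:127989708-127993867. Exons of Myd88 overlap those of Acaa1a, a peroxisomal thiolase gene on the opposite strand with up to 10710 counts in a library. No source used here states whether reads were counted by strand, so the values of Myd88 are uncertain.

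Promoter windows from RefSeq (GRCm38.p6, 250 bases before to 50 bases after a start site) were used for 7 of the 10 genes. These were Tlr2, Tlr3, Tlr9, Myd88, Nlrp3, Pycard and Casp1. None was found for Tlr4 and Tlr7, and Cd14 was left out of the search. Windows are shown for Tlr2, the receptor whose libraries with and without amyloid did not overlap, for Tlr3, the member with the higher level in astrocytes, and for Pycard, the inflammasome adaptor. They lie at chr3:83841559-83841858, chr8:45410331-45410630 and chr7:127993818-127994117, all on the minus strand, and run 5′ to 3′ along the gene. Capitals mark matches to the NF-κB consensus in Tlr2 and Tlr3 and to GAGGAAGT, a PU.1-type site, on the opposite strand in Pycard.
Tlr2: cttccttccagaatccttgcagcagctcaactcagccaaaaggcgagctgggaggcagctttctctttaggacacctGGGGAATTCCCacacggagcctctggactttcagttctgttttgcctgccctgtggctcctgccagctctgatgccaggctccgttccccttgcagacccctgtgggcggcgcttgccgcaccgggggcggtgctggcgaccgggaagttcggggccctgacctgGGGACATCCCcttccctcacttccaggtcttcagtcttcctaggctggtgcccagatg
Tlr3: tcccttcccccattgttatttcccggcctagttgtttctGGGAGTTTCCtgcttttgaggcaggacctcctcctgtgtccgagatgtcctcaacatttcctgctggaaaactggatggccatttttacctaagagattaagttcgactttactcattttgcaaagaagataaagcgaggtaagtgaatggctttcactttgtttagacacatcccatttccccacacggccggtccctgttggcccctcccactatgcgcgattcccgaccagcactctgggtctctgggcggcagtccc
Pycard: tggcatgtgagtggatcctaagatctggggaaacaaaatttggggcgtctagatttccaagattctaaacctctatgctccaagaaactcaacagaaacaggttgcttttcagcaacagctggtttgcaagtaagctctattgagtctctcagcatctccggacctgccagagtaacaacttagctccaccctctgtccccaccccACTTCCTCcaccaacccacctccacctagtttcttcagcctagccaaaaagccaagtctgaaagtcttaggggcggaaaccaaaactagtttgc

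The NF-κB consensus, searched on both strands, was found in windows of Tlr2, Tlr3 and Nlrp3, which are 3 of 7 genes and 3 of their 8 windows. It was found in 4.51% of all 32851 RefSeq windows of mouse genes. This consensus replaced another form, found only in Tlr3, after the windows had been read, so setting these shares side by side is no test. The marked stretches of Tlr2 begin 173 and 8 bases before the start site, and the first of them holds overlapping matches on both strands. That of Tlr3 begins 211 bases before it. GAGGAAGT was found in the windows of Pycard and Tlr9 and in 3.2% of all windows. GAAANNGAA, the core of interferon-response elements, was found in the window of Myd88 and in 8.56% of all windows, and TGANTCA, the AP-1 site, in that of Tlr9 and in 7.81%. No match to these 4 motifs stood in the window of Casp1. A match is a description of the letters and no evidence that a factor binds.

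Microglia held far more RNA of 9 of the 10 genes than astrocytes, and Tlr3 was the exception. Tlr2 ranged from 137 to 270 CPM with a median of 208 in the 13 microglia libraries and from 0.0522 to 12.3 CPM with a median of 1.65 in the 13 astrocyte libraries. Tlr4 ranged from 43.8 to 109 CPM with a median of 66.6 in microglia and from 0.524 to 5.22 CPM with a median of 3.14 in astrocytes. Cd14 ranged from 1120 to 2660 CPM with a median of 1770 in microglia and from 0.0251 to 217 CPM with a median of 1.11 in astrocytes. Every microglia library was above every astrocyte library for each of these 3 surface receptor genes. The single high astrocyte value of Cd14 came from APPPS1 Cre-negative mouse 774, and the other 12 lay at or below 2.19 CPM.

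Among the endosomal receptors, Tlr3 ran the other way. It ranged from 84.6 to 215 CPM with a median of 140 in astrocytes and from 39.1 to 65.5 CPM with a median of 50 in microglia, so the lowest astrocyte library stood above the highest microglia library. Its mean was 155 ± 38.5 CPM (SD, n = 13) in astrocytes and 52.8 ± 9.26 CPM (SD, n = 13) in microglia, a ratio of 2.93. Tlr7 ranged from 110 to 211 CPM with a median of 148 in microglia and had 0 counts in 11 of the 13 astrocyte libraries. The other two held 26 counts in mouse 779 and 3 in mouse 469, and a count of 0 allows up to 0.0822 CPM in the shallowest library, for counting error only. Tlr9 was low in microglia too, at 2.18 to 6.91 CPM with a median of 3.56. In astrocytes it had 8 counts in all and 0 in 8 of 13 libraries, so its level there was not detectable in most libraries.

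**Figure D1:**
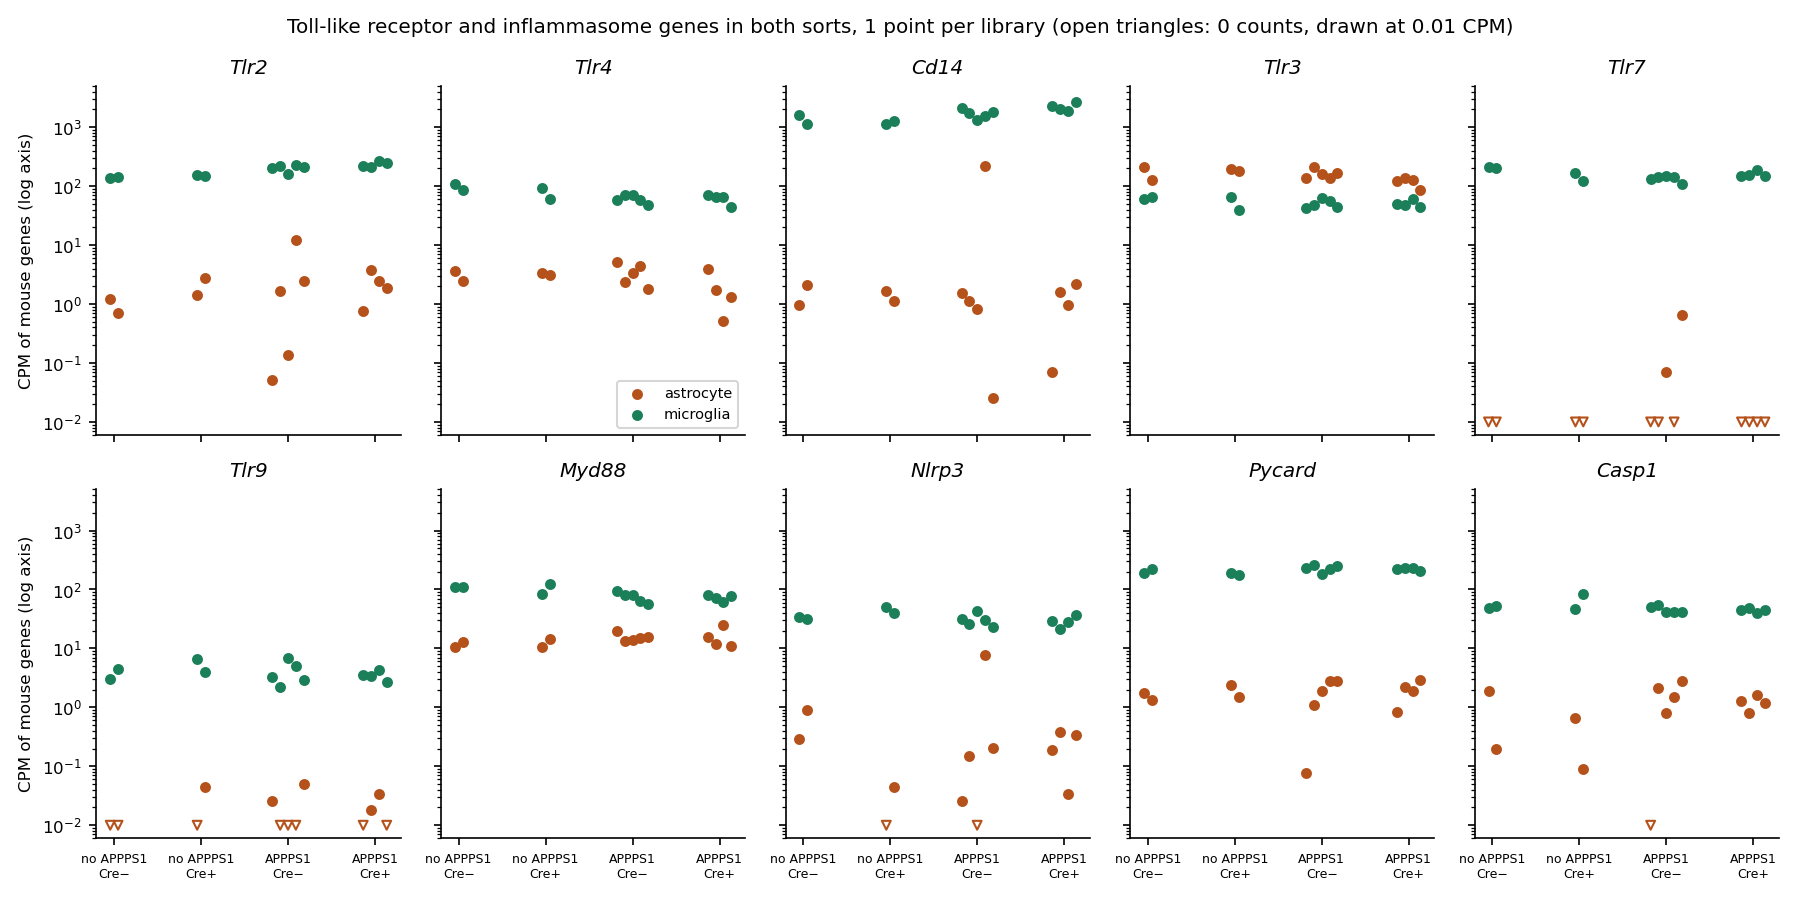
CPM of mouse genes (log axis) for the 10 genes in each of the 26 libraries, by genotype group (no APPPS1 means amyloid-free), with microglia in green, astrocytes in orange and libraries with 0 counts as open triangles at 0.01. Microglia lie above astrocytes in all panels except Tlr3, where astrocytes lie above, and mouse 774 gives the highest astrocyte point of Cd14, at 217 CPM.

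Of the signalling and inflammasome genes, Myd88 differed least between the sorts, at 84.9 ± 21 CPM in microglia and 14.6 ± 4.1 CPM in astrocytes (SD, n = 13 each). Pycard, the adaptor ASC, stood at 218 ± 25.1 CPM in microglia and 1.81 ± 0.843 CPM in astrocytes. Nlrp3 stood at 32.6 ± 8.13 CPM in microglia and at a median of 0.187 CPM in astrocytes, with 0 counts in 2 libraries. Casp1 stood at 49.1 ± 11 CPM in microglia and 1.16 ± 0.846 CPM in astrocytes. The libraries of the sorts did not overlap for any of these 4 genes.

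In the edgeR quasi-likelihood test over the 26 libraries, with p-values adjusted by Benjamini-Hochberg over 21612 genes, all 10 genes passed at an adjusted p under 0.05, 9 higher and 1 lower in microglia. Most genes differed between these cell types: 35.4% of all genes tested were higher in microglia and 41.1% lower, and among genes with a mean of at least 1 CPM 48.6% did not overlap between the sorts, as against 10 of the 10 genes here. The median log2 difference of the 10 genes was 7.17, beside -0.18 over all genes. Tlr3 was lower in microglia by -1.09 ± 0.12 (log2, SE), with an adjusted p of 2.4e-08. Tlr2 was higher by 6.99 ± 0.64 (adjusted p = 9.8e-10), Tlr4 by 5.15 ± 0.28 (1.4e-13) and Cd14 by 9.4 ± 1.22 (3.4e-07). Without mouse 774, the difference of Cd14 was 10.82, that of Nlrp3 8.38 in place of 7.38 and that of Tlr2 7.38. Pycard was higher by 7.35 ± 0.38, Casp1 by 6.26 ± 0.48 and Myd88 by 3.16 ± 0.15. On library totals without TMM scaling, which moved the median over all genes from -0.18 to -0.64, Tlr3 differed by -1.55 and Myd88 by 2.7. Fitted values of Tlr7 and Tlr9 depend on the prior count because most astrocyte libraries were at 0, so only mean CPM are given, 155 and 0.0555 for Tlr7 and 4.01 and 0.0134 for Tlr9, where the astrocyte means rest on 29 and 8 counts.

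The microglia markers found in the astrocyte libraries give a scale for the low astrocyte values. Set as a share of the microglial median, the astrocyte median was 0.0627% for Cd14, 0.588% for Nlrp3, 0.793% for Tlr2 and 0.847% for Pycard, against 0.315% for the summed microglia identity markers. It was 2.55% for Casp1, 4.71% for Tlr4 and 17.2% for Myd88, and 0% for Tlr7 and Tlr9. The part of carried-over RNA in these values was not tested.

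Compared between genes per kb of exon, Cd14 was by far the most abundant of the 10 in microglia, at 1000 ± 272 CPM per kb (SD, n = 13). Tlr2 followed at 65.4 ± 14.5 and Pycard at 57.3 ± 6.6, and these neighbours overlapped. Tlr7 at 38 ± 7.38, Myd88 at 33 ± 8.16 and Casp1 at 32.8 ± 7.37 CPM per kb also overlapped each other. Below them came Tlr4 at 12.4 ± 3.22, Tlr3 at 10.1 ± 1.78 and Nlrp3 at 8.05 ± 2 CPM per kb, each overlapping the next. Tlr9 was lowest at 1.15 ± 0.412 CPM per kb. Only the steps from Cd14 to Tlr2, from Casp1 to Tlr4 and from Nlrp3 to Tlr9 separated neighbours in all 13 libraries. Lengths were the union of all annotated exons, which understates genes with long rare isoforms.

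With amyloid, microglia held more RNA of Tlr2 and Cd14, and none of the other 8 genes passed the test. For Tlr2, the 5 APPPS1 Cre-negative libraries had 159, 202, 214, 223 and 228 CPM, and the 4 APPPS1 Cre-positive libraries had 208, 223, 248 and 270 CPM. The amyloid-free libraries had 137 and 141 CPM without Cre and 151 and 156 CPM with Cre. All 9 APPPS1 libraries were thus above all 4 amyloid-free libraries. The means were 220 ± 30.9 CPM (SD, n = 9) and 146 ± 8.67 CPM (SD, n = 4), a ratio of 1.5.

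For Cd14, the APPPS1 Cre-negative libraries had 1300, 1520, 1770, 1800 and 2120 CPM and the Cre-positive ones 1910, 2030, 2310 and 2660 CPM. The amyloid-free libraries had 1120 and 1600 CPM without Cre and 1140 and 1250 CPM with Cre. Of the 9 APPPS1 libraries, 7 were above all amyloid-free libraries, and the overlap came from mouse 465, the amyloid-free library at 1600 CPM. The means were 1930 ± 408 and 1280 ± 222 CPM. Tlr4, the receptor that CD14 serves, did not follow: its means were 61.2 ± 9.81 CPM with amyloid and 86.8 ± 20.5 CPM without.

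**Figure D2:**
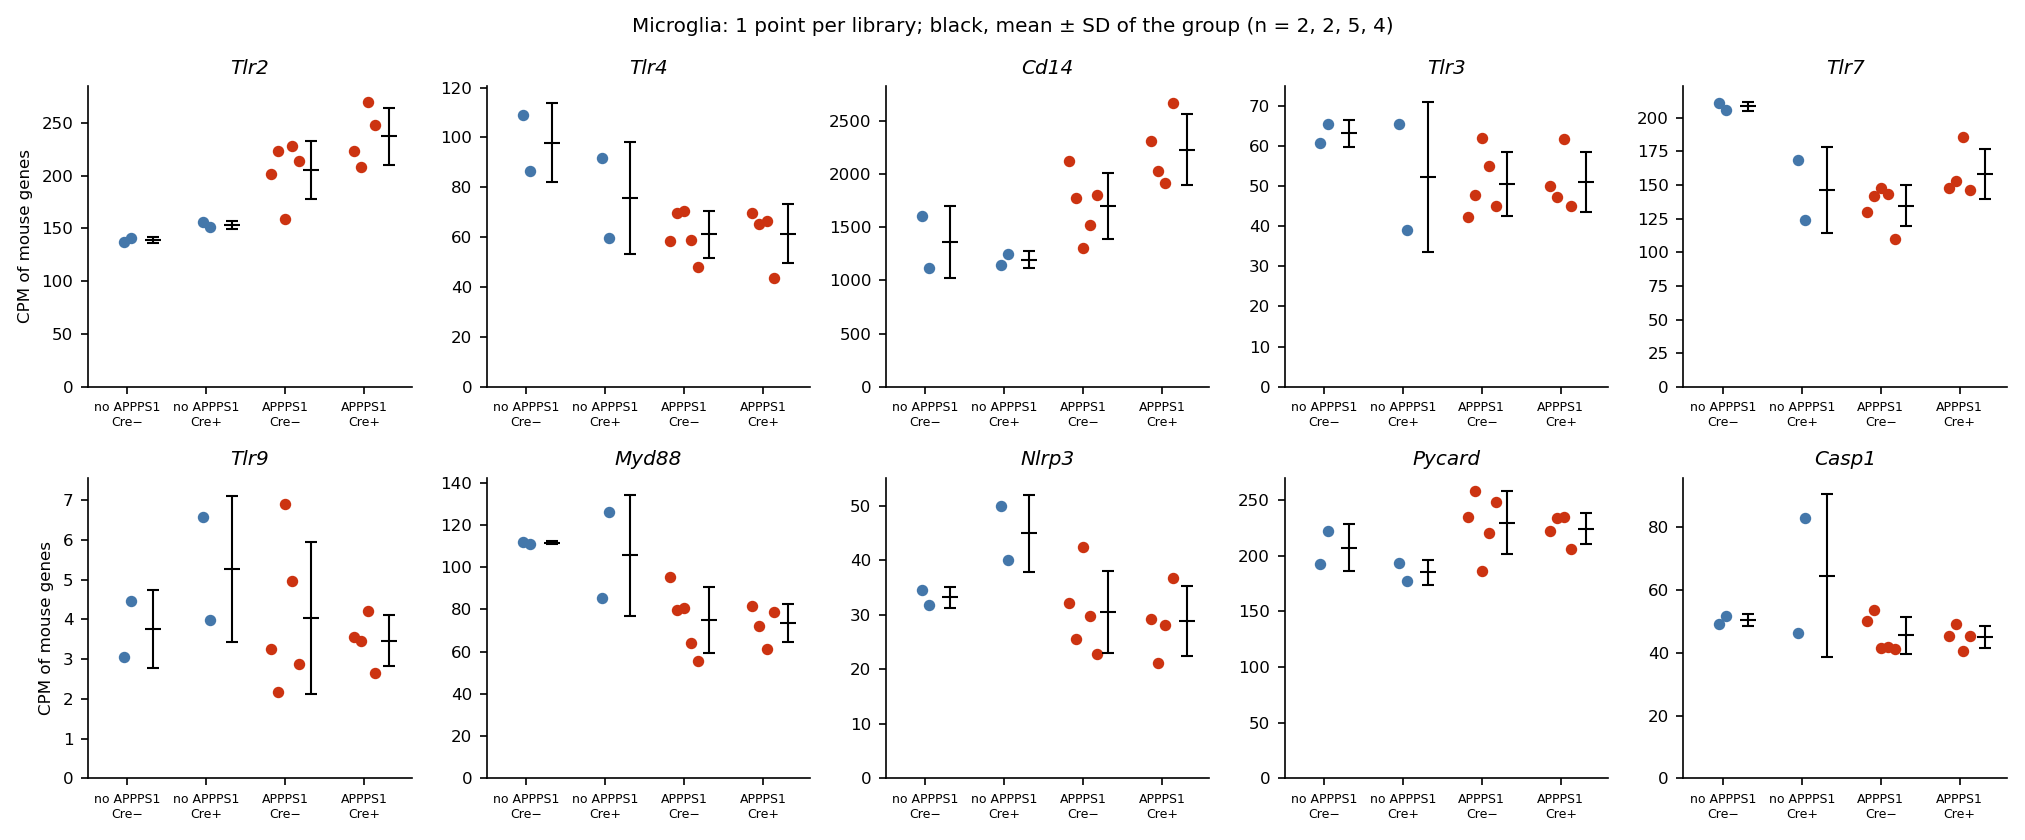
CPM of mouse genes for the 10 genes in the 13 microglia libraries, with amyloid-free groups (no APPPS1) in blue and APPPS1 groups in red, and each group's mean and SD in black. All 9 APPPS1 points of Tlr2 lie above the 4 amyloid-free points, while APPPS1 and amyloid-free points overlap for each of the other genes.

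Averaged over Cre, the edgeR test gave Tlr2 a log2 difference of 0.75 ± 0.13 (SE; adjusted p = 0.00579) and Cd14 one of 0.76 ± 0.17 (adjusted p = 0.0165). Thus 2 of the 10 genes rose and 0 fell, where 6.06% of the 17593 genes tested rose and 3.52% fell. Tlr2 was the 1 gene of the 10 whose APPPS1 libraries all exceeded the amyloid-free ones, which held for 2.67% of genes with a mean of at least 1 CPM. The median of the 10 genes was -0.12, beside -0.05 over all genes. Both calls were made by DESeq2 and voom as well. Both were lost when the library of mouse 459 labelled microglia, with 49500 CPM of astrocyte identity markers, was kept as labelled. The values were then 0.61 for Tlr2 (adjusted p = 0.709) and 0.63 for Cd14 (0.797). The call of Cd14 was also lost without amyloid-free mouse 26, at an adjusted p of 0.0535, and without amyloid-free mouse 759, at 0.0845. That of Tlr2 stood in each fit that left out 1 mouse.

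The amyloid-free microglia differed in more than these genes. Their astrocyte identity markers summed to between 271 and 401 CPM, against 131 to 245 CPM in the APPPS1 microglia, the 2 ranges did not overlap, and 7 of the 12 markers fell with amyloid. Of the 12 microglia identity markers, 4 rose and 0 fell. Their 9 monocyte and neutrophil markers summed to between 1210 and 5350 CPM, against 181 to 4010 CPM, and their 12 dissociation and immediate early genes to between 7600 and 9500 CPM, against 3590 to 11700 CPM. Of the latter, 2 of 12 fell with amyloid and 0 rose. The 8 endothelial markers summed to between 50.8 and 259 CPM without amyloid and 27.9 and 66 CPM with it, and the 8 border macrophage markers to between 195 and 542 CPM and 145 and 297 CPM. The part of these differences in the results was not tested. Without TMM scaling, which moved the median of all genes from -0.05 to -0.19, Tlr2 differed by 0.6 and Cd14 by 0.61, and both passed.

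The remaining genes had smaller differences. Myd88 stood at 74.4 ± 12.3 CPM with amyloid and 109 ± 16.9 CPM without, and 8 of 9 APPPS1 libraries were below all amyloid-free ones. Its log2 difference of -0.4 ± 0.14 had an adjusted p of 0.0911, which became 0.0361 without TMM scaling and 0.0493 without mouse 439. Pycard stood at 227 ± 21.8 and 196 ± 18.8 CPM, with a difference of 0.36 ± 0.12 and an adjusted p of 0.0792, which became 0.0342 with DESeq2 and 0.0227 without mouse 469. Tlr4 differed by -0.35 ± 0.15 (adjusted p = 0.15). Nlrp3, the sensor itself, differed by -0.24 (95% interval -0.59 to 0.1), and Casp1 by -0.18 (-0.49 to 0.13). Tlr3, Tlr7 and Tlr9 lay between -0.12 and -0.04, and the interval of Tlr3 ran from -0.35 to 0.27.

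**Figure D3:**
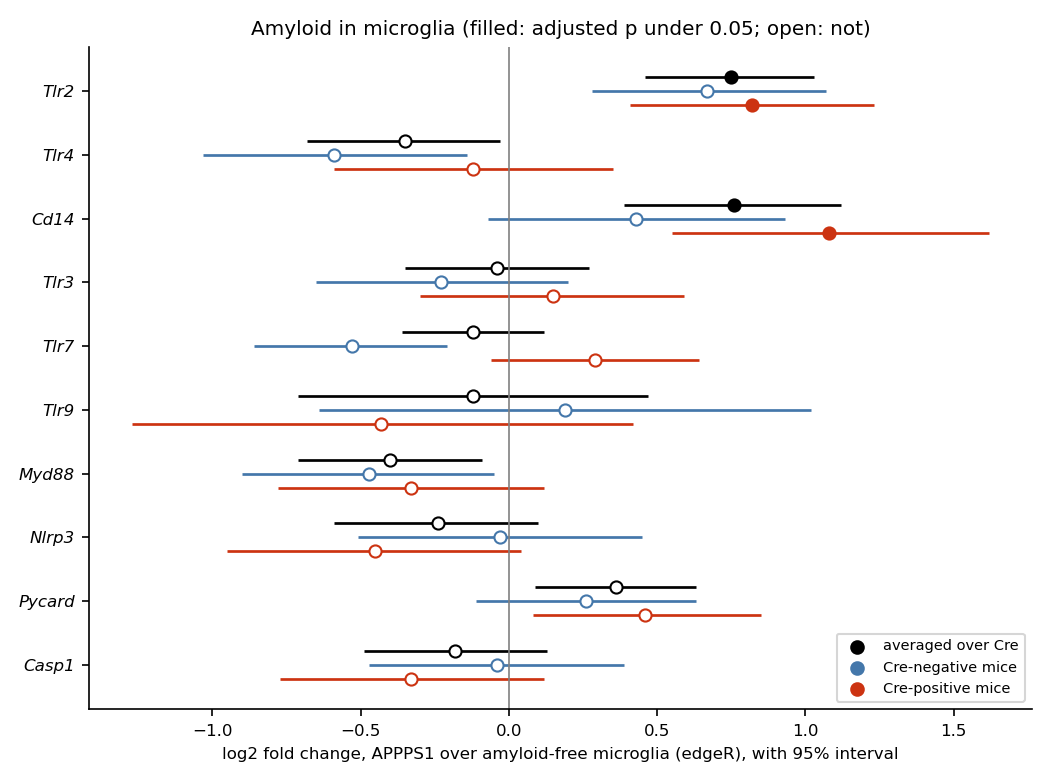
Log2 fold change of APPPS1 over amyloid-free microglia with its 95% interval for the 10 genes, averaged over Cre (black), in Cre-negative (blue) and in Cre-positive mice (red), with filled points at an adjusted p under 0.05. Tlr2 and Cd14 are filled for the average, at 0.75 and 0.76, and for Cre-positive mice, at 0.82 and 1.08, and no gene is filled for Cre-negative mice.

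In Cre-positive mice alone, Tlr2 rose by 0.82 ± 0.19 (adjusted p = 0.0278) and Cd14 by 1.08 ± 0.25 (adjusted p = 0.0272), so 2 of 10 rose and 0 fell, beside 3.65% of all genes that rose and 3.39% that fell. In the same comparison 10 of 12 astrocyte, 6 of 8 endothelial and 1 of 9 monocyte and neutrophil markers fell, while 4 of 12 microglia identity and 2 of 8 border macrophage markers rose, and their part in the result was not tested. These 2 calls rest on 4 against 2 libraries, and both were lost when mouse 26, 458 or 475 was left out, with adjusted p-values between 0.0566 and 0.292. In Cre-negative mice, 0 of the 10 genes passed edgeR's test, beside 0.313% of all genes, and 4 of the 10 had an unadjusted p under 0.05, beside 11% of all genes. Tlr2 differed there by 0.67 ± 0.18 (adjusted p = 0.149) and Cd14 by 0.43 ± 0.23 (0.532). DESeq2 called 2 of the 10 genes in the Cre-negative mice, beside 433 of 17593 genes. These were Tlr2 at 0.68 (adjusted p = 0.0184) and Tlr7 at -0.52 (0.0428). Without mouse 469, edgeR called Tlr2 (0.0228). The averaged comparison contains both of these comparisons, so they are not separate evidence.

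Tlr7 varied over the groups, and its differences with Cre are given beside those of Tlr3 and Tlr4. The amyloid-free Cre-negative libraries had 206 and 211 CPM, above every other microglia library. Such a gap was common in groups this small. Among genes with a mean of at least 1 CPM, 47.6% did not overlap with Cre in amyloid-free microglia. With amyloid in Cre-negative microglia, 17.7% did not overlap. The amyloid-free Cre-positive libraries had 124 and 169 CPM, the APPPS1 Cre-negative ones 110, 130, 142, 143 and 148 CPM, and the APPPS1 Cre-positive ones 146, 148, 153 and 186 CPM. In the amyloid-free microglia, Cre-positive differed from Cre-negative by -0.6 ± 0.19 (adjusted p = 0.231), and the Cre effect differed between APPPS1 and amyloid-free mice by 0.82 ± 0.22 (adjusted p = 0.52). Neither passed edgeR's test. The same 2 differences were -0.37 and 0.37 for Tlr3 and -0.47 and 0.47 for Tlr4, and none of these passed, so no direction is read. Between the APPPS1 groups, Tlr3 and Tlr4 differed with Cre by only 0.01 and 0. Their second difference thus repeats the first with its sign turned. In the same 4 amyloid-free libraries, the microglia identity markers summed to between 41000 and 43500 CPM without Cre and 19000 and 36600 CPM with Cre, and the endothelial markers to between 50.8 and 57.6 CPM and 100 and 259 CPM. Of the 12 identity markers 0 passed, and 7 had an unadjusted p under 0.05; the part of this in Tlr7 was not tested. Without mouse 22, the 2 differences of Tlr7 were -0.92 and 1.16, with mouse 26 then the only amyloid-free Cre-positive library and assumed to vary as the others do. Tlr7 is X-linked, and all 28 libraries had Xist between 71.7 and 407 CPM and Ddx3y, a Y-linked gene, at or below 0.151 CPM.

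No difference with Cre passed edgeR's test for any of the 10 genes. Between APPPS1 Cre-positive and Cre-negative microglia, which compares 4 with 5 libraries, 0 of 10 genes passed edgeR's test, beside 0.00568% of all genes. DESeq2 called 0 of the 10, and 0 had an unadjusted p under 0.05, beside 3.5% of all genes. The differences lay between -0.22 for Tlr9 and 0.37 for Cd14, all with an adjusted p of 1, and the groups overlapped for each gene. The 95% interval was -0.12 to 0.49 for Tlr2, -0.02 to 0.76 for Cd14, -0.47 to 0.31 for Nlrp3 and -0.38 to 0.32 for Casp1, so a rise of Cd14 by 0.76 is within its interval. In amyloid-free microglia, 0 of 10 passed, beside 0.0114% of all genes. DESeq2 called 0, and 1 of 10, Tlr7, had an unadjusted p under 0.05, beside 14.8% of all genes. For the difference of the Cre effect, 0 of 10 passed, beside 0% of all genes. DESeq2 called 0, and 1 of 10 had an unadjusted p under 0.05, beside 8.68% of all genes. The Cre and amyloid comparisons share groups, so their values are given side by side only.

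In astrocytes, Tlr7 and Tlr9 had too few counts to be tested, and 0 of the other 8 genes passed in any comparison by edgeR or DESeq2. With amyloid, averaged over Cre, 0 of 8 were called, beside 0% of all 20052 genes, and 1 of 8 had an unadjusted p under 0.05, beside 7.03% of all genes. That gene was Tlr3, at 143 ± 34.7 CPM with amyloid (n = 9) and 180 ± 38.7 CPM without (n = 4), a log2 difference of -0.38 ± 0.17 (adjusted p = 0.664). For Cre in APPPS1 astrocytes, 0 of 8 were called, beside 0.00997% of all genes, and 2 of 8 had an unadjusted p under 0.05, beside 6.7% of all genes. Tlr3 had 84.6, 124, 127 and 140 CPM with Cre and 135, 140, 162, 166 and 211 CPM without, which overlap, and differed by -0.51 ± 0.19 (adjusted p = 0.701). Cd14 differed by -5.2 ± 1.9 (adjusted p = 0.7), and by 0.38 (0.973) without mouse 774. In amyloid-free astrocytes, 0 of 8 passed, beside 0.204% of all genes, and 0 had an unadjusted p under 0.05, beside 12.9%. The amyloid effect was tested between the sorts in the fit of all 26 libraries, where 0 of the 10 genes passed, beside 1.5% of all genes. DESeq2 called 0, and 1 of 10, Myd88, had an unadjusted p under 0.05, beside 15.6% of all genes. Tlr7 could not be fitted there with a usable error.

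The high astrocyte values of 3 of the genes came from mouse 774. Its astrocyte library had 217 CPM of Cd14, 7.6 CPM of Nlrp3 and 12.3 CPM of Tlr2, against at most 2.19, 0.891 and 3.76 CPM in the other 12. The same library had 157 CPM of Il1b and 30.9 CPM of Il1rn, the antagonist of the interleukin-1 receptor, against at most 0.789 and 0.361 CPM in the others. It also had 184 CPM of S100a8 and 132 CPM of S100a9, genes abundant in neutrophils and monocytes, against at most 0.295 and 0.626 CPM. Its Ly6g was at 0.145 CPM, Camp at 0 and Chil3 at 3.09 CPM, and its 9 monocyte and neutrophil markers summed to 333 CPM, 1 of them at 0. The microglia gene P2ry12, at 14 CPM, was within the range of the other libraries, 10.5 to 18.6 CPM. Csf1r, which microglia, monocytes and macrophages share, was above it, at 11.2 CPM against at most 4.98 CPM. Pycard at 2.8 CPM and Casp1 at 1.5 CPM were also within range. The microglia library of the same mouse had 1520 CPM of Cd14, within its group, and 181 CPM of the monocyte and neutrophil markers, the lowest of the 13. The part of such cells in these values was not tested.

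**Figure D4:**
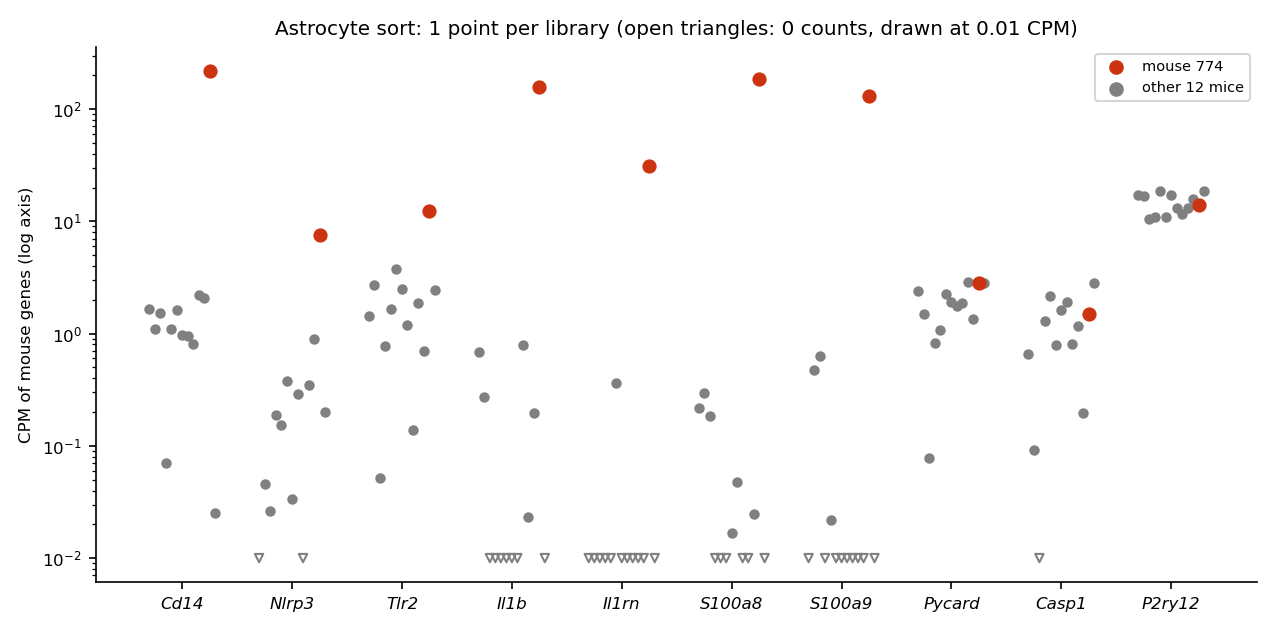
CPM of mouse genes (log axis) in the 13 astrocyte libraries for members of the set and for related genes, with mouse 774 in red, the other 12 mice in grey and libraries with 0 counts as open triangles at 0.01. Mouse 774 stands apart for Cd14, Nlrp3, Tlr2, Il1b, Il1rn, S100a8 and S100a9 and lies among the others for Pycard, Casp1 and P2ry12.

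Of the other genes of these pathways, 71 in 8 lists, 59 were higher and 5 lower in microglia and 7 did not pass, where 35.4% of all genes were higher and 41.1% lower. All 7 other Toll-like receptors were higher, among them Tlr13, a receptor for bacterial ribosomal RNA, at 173 CPM in microglia and 0.471 CPM in astrocytes. All 8 co-receptor and trafficking genes were higher too, including Unc93b1, which carries endosomal receptors, by 7.2 ± 0.26 on the log2 scale. Of 15 adaptors and kinases, 11 were higher and 2 lower, the latter Tab1 at -1.05 and Chuk at -0.51. Ticam2, the adaptor that links TLR4 to TRIF, had 26.2 CPM in microglia and 0.0262 CPM in astrocytes. Of 8 transcription factors 7 were higher, led by the NF-κB subunit Nfkb1 at 3.21 ± 0.13. Of 9 negative regulators 6 were higher, among them the NF-κB inhibitor Nfkbia at 3.94 ± 0.21, and 2 lower, Sarm1 at -0.81 and Tollip at -0.26. Without TMM scaling, Traf6, Lman1 and Ticam1 changed sign and did not pass, and Traf3 and Sigirr did not pass.

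Of 9 other inflammasome sensors, 8 were higher in microglia, and of 7 regulators 5. Of 8 effectors, 7 were higher and 1 lower. The lower one was Il18, which caspase-1 matures, at 354 ± 57 CPM in astrocytes (283 to 460) and 39.9 ± 7.32 CPM in microglia (30.9 to 55.8), a difference of -2.65 ± 0.11 (adjusted p = 9.0e-16). The astrocyte sort thus held the RNA of Il18 and of Tlr3, while Nlrp3, Pycard and Casp1 averaged 0.781, 1.81 and 1.16 CPM there. Nlrp3 averaged 0.212 CPM without mouse 774. The part of other cells of this sort in these values was not tested. Il1b, the other cytokine that caspase-1 matures, was at 265 ± 246 CPM in microglia and 0 to 0.789 CPM in the astrocyte libraries other than that of mouse 774.

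With amyloid, 2 of the 71 pathway genes rose and 7 fell in microglia averaged over Cre, where 6.06% of all genes rose and 3.52% fell. The genes that rose were Ly86, by 0.93 ± 0.16 (adjusted p = 0.00504), and Cd180, by 0.56 ± 0.15 (0.0367), whose products MD-1 and RP105 form a TLR4-like complex. Ly86 stood at 1690 ± 236 CPM with amyloid and 991 ± 160 CPM without. Among the other Toll-like receptors, Tlr8 fell by 1.55 on the log2 scale (adjusted p = 0.0336) and Tlr5, the flagellin receptor, by 0.81 (0.0359), 2 of 7. Cd36, a scavenger receptor that works with TLR2, fell by 0.83 (0.0378), and Rel, an NF-κB subunit, by 0.87 (0.0177), 1 of 8 transcription factors. Tlr8 and Cd36 were highest in mouse 26, at 12.3 and 108 CPM.

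**Figure D5:**
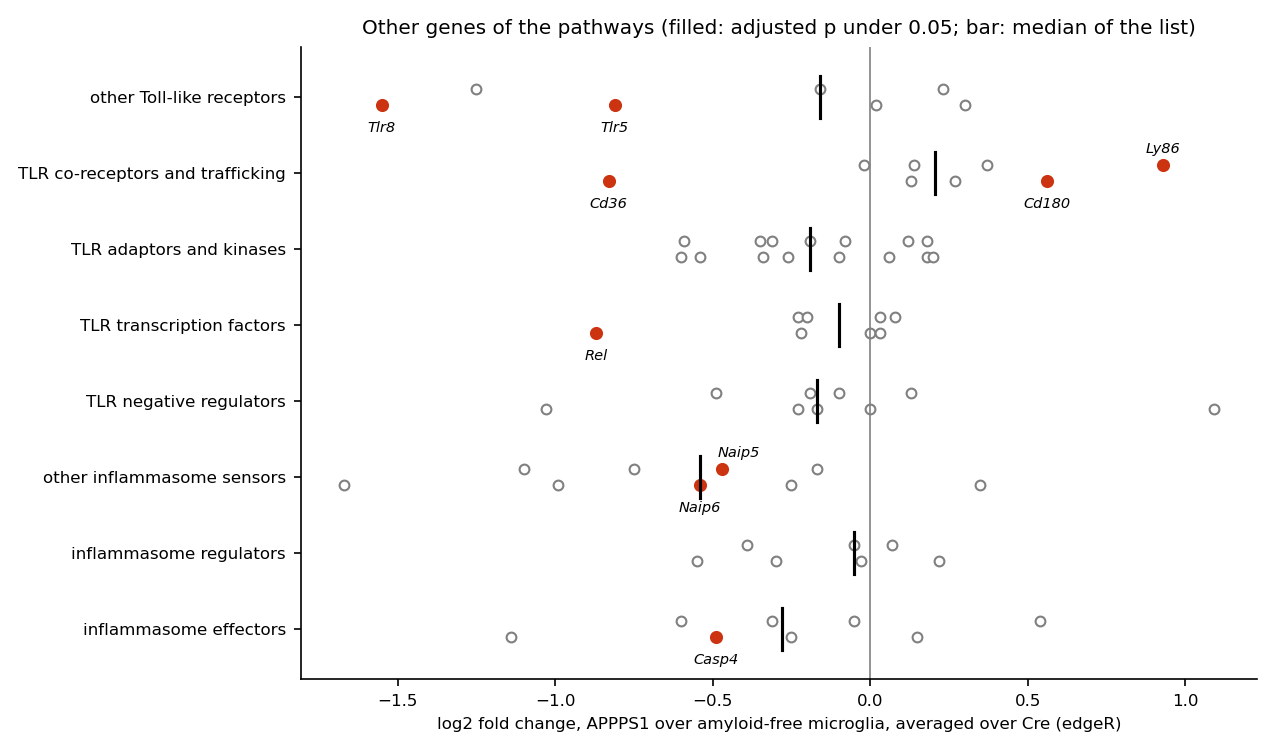
Log2 fold change of APPPS1 over amyloid-free microglia, averaged over Cre, for the 71 other pathway genes in 8 lists, with filled red points for genes at an adjusted p under 0.05 and a bar at each list's median. Ly86 and Cd180 are the filled points above 0, and Tlr8, Tlr5, Cd36, Rel, Naip5, Naip6 and Casp4 those below.

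The inflammasome lists held 3 of the 7 genes that fell. Naip5 fell by 0.47 (adjusted p = 0.0293) and Naip6 by 0.54 (0.0353), both cytosolic sensors of bacterial proteins and near-identical copies whose reads cannot be split with certainty. Casp4, which senses lipopolysaccharide in the cytosol, fell by 0.49 (adjusted p = 0.042). By edgeR, 0 of 15 adaptors and kinases, 0 of 9 negative regulators and 0 of 7 inflammasome regulators passed, beside 9.58% of all genes. In these 3 lists, 4, 1 and 1 had an unadjusted p under 0.05, beside 27.2% of all genes. DESeq2 called 1, 0 and 0 of them, beside 2663 of 17593 genes. The list medians ran from -0.54 for the other sensors to 0.21 for the co-receptors, beside -0.05 over all genes. Of the 9 calls, 1 remained without mouse 26, without mouse 465 or without mouse 759, 2 without mouse 458 or without mouse 475, and 0 with mouse 459 as labelled. In Cre-positive mice 1 of the 71 rose, Ly86, and 4 fell, Tlr8, Naip5, Naip6 and Il1rn, where 3.65% of all genes rose and 3.39% fell. Of these 5 calls, 0 remained without mouse 26 or without mouse 458, and 1 without mouse 475. In Cre-negative mice and for Cre in APPPS1 microglia, 0 of the 71 passed in edgeR or DESeq2, with 7 and 4 at an unadjusted p under 0.05, beside 11% and 3.5% of all genes. The amyloid effect differed between the sorts for 1 of the 71, Rel, by -2.7 ± 0.62 (adjusted p = 0.0283), beside 1.5% of all genes. DESeq2 called 4 of the 71 and voom 0, beside 1039 and 169 of 21612 genes.

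Within microglia, the genes whose log2 CPM over the 13 libraries most resembled that of Tlr2, among 8048 protein-coding genes whose log2 CPM averaged 3 or more, were Top2a (Pearson r = 0.937), Cdk1 (0.935) and Ank (0.928). Top2a and Cdk1 encode proteins of dividing cells. For Cd14 they were Tcim (0.895), Ctla2b (0.859) and Tmem50a (0.849), for Myd88 Ptpn1 (0.965), Alox5ap (0.949) and Tnfaip8 (0.946), and for Casp1 Cdk2ap2 (0.956), Ostf1 (0.926) and Slfn2 (0.922). The nearest genes to Tlr4, Tlr3, Tlr7 and Tlr9 were Zscan26 (0.956), Usp8 (0.907), Abhd15 (0.898) and Sec16a (0.907). Those to Pycard and Nlrp3 were Cct4 (0.934) and Ammecr1l (0.919). Among the 10 genes themselves, Tlr3 and Tlr7 had r = 0.8 and Tlr2 and Cd14 r = 0.77, while Nlrp3 and Pycard had r = -0.83 and Tlr2 and Myd88 r = -0.76. These coefficients describe 13 libraries that share groups, depth and composition, and they are the highest of many.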

How the data were processed

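Per the labels' protocols, total RNA of sorted cells was made into SMARTer libraries. Per the submitters' processing notes, bcl2fastq, STAR 2.5.1a and featureCounts 1.4.6-p5 of Subread were used with GRCm38 and GRCh38; their settings are not given in the sources used here. The authors deposited raw counts per gene in 1 table of 95966 rows. From these, 258 gene IDs on several identical rows were kept once, and human genes, 0.042% to 0.237% of counts, were left out of library sizes and tests.

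Counts were analysed in R 4.3.3 with edgeR 4.0.16: genes were filtered by group with the default rule, scaled by TMM and tested by quasi-likelihood F tests with 1 term per group, on 13 microglia, 13 astrocyte or all 26 libraries. The Benjamini-Hochberg adjustment ran over every gene of a fit, and an adjusted p under 0.05 counted as a call. SEs of log2 differences are the absolute difference over the square root of F. Levels are CPM of mouse genes. Fitted differences differ from CPM ratios because of the TMM factors and because groups are averaged with equal weight on the log scale. The labels name 1 mouse per library, so the spread is between mice. A count of 0 was read as at most 3 counts, for counting error only. Correlations used log2 CPM with 0.1 added. The scripts were tested on simulated data.

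All 10 members are named, with the genes past the threshold in each pathway list (the 4 of lowest p where more passed) or the list's counts alone, and the 3 genes most like a member. Members and lists were chosen with earlier results of these data known. Il1b, the genes lower in microglia, those lost without TMM and those of mouse 774's library were named after their values were seen, and the NF-κB consensus replaced a 9-letter form, found only in Tlr3, after the windows had been read. Alternatives were DESeq2 1.42.0, voom (limma 3.58.1), RLE size factors, no filter, the compared groups alone, mouse 459 kept as labelled, and each mouse left out. Library totals without TMM were added after seeing the data. Each mouse gave 1 library of each sort, so the mouse number pairs the sorts. The deviations of a mouse's 2 libraries from their group means correlated between -0.128 and 0.34 over genes, above 0.1 in 4 of 13 mice.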

Additional observations from a re-analysis of the deposited data

Results flagged for a closer look

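Dixon's test was run on each gene in each group of 4 or 5 libraries, and chance flags about 1 group in 20. It marked 4 values, all in APPPS1 Cre-negative astrocytes. In mouse 774, Cd14 stood at 217 CPM with the next library at 1.54 CPM, Nlrp3 at 7.6 CPM with the next at 0.201 CPM, and Tlr2 at 12.3 CPM with the next at 2.43 CPM. In mouse 779, Tlr7 stood at 0.652 CPM, from 26 counts, with the next library at 0.0696 CPM. The 3 values of mouse 774 are from 1 library and are not independent of each other.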

How the results depend on the processing

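A direction was read only where a value passed the threshold. Of 2051 member values under the alternatives, 2030 kept their side of the threshold, 12 lost a call, 9 gained one and 0 reversed, while 112 uncalled values had the other sign. Between the sorts, 10 of 10 genes passed in each alternative, and also 10 with the mouse as a replicate block (pairing both sorts of a mouse). The block left the difference of the amyloid effect at 0 members and changed no other call, while the genes called there went from 325 to 80. Amyloid averaged over Cre called 2 members, 0 with mouse 459 as labelled, and 1 to 3 with 1 mouse left out. In Cre-positive mice it called 2, 0 with mouse 459 as labelled, and 0 to 2 with 1 mouse left out. In Cre-negative mice it called 0, 2 with DESeq2, and 0 to 1 with 1 mouse left out. Cre in amyloid-free microglia and the difference of the Cre effect each called 0, and 0 to 1 with 1 mouse left out. The cause was not tested.

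Over all genes, amyloid averaged over Cre called 1685, 2663 with DESeq2, 19 with mouse 459 as labelled and 392 to 2441 with 1 mouse left out. In Cre-negative mice it called 55, 433 with DESeq2, 265 unfiltered, 3 with voom, and 0 with the compared groups alone or mouse 459 as labelled, and 0 to 277 with 1 mouse left out. In Cre-positive mice it called 1240, 2349 with DESeq2, 0 with mouse 459 as labelled and 0 to 1884 with 1 mouse left out. Cre in amyloid-free astrocytes called 41, 807 with DESeq2, 140 unfiltered, 4 without TMM, 2 with voom, 0 with the compared groups alone or mouse 459 as labelled, and 0 to 155 with 1 mouse left out. With DESeq2 and unfiltered, Cre in amyloid-free microglia called 299 and 146 in place of 2, and the difference of the Cre effect 52 and 28 in place of 0. DESeq2 called 257 for amyloid in astrocytes in place of 0, 41 for Cre in APPPS1 astrocytes in place of 2, and 6 for Cre in APPPS1 microglia in place of 1. In the difference of the amyloid effect, 325 became 1039 with DESeq2, 169 with voom and 30 with mouse 459 as labelled, and 52 to 577 with 1 mouse left out. In astrocytes Tlr7 and Tlr9 had too few counts for a test.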
